A study of Mus musculus with 2 samples.

Results

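Wide DNase footprints away from transcription starts in mouse urinary bladder were chosen by their width in both libraries. A footprint is a short run of bases inside accessible chromatin that is cut less often than its surroundings. A member was an autosomal footprint of at least 25 bases (end minus start) that overlapped a footprint of at least 25 bases in the other library by at least 1 base and lay more than 1 kb from any GENCODE M21 transcript start. Of 140919 deposited footprints in replicate 1 and 167442 in replicate 2, 4284 and 4283 were members, and they merged into 4284 sites. The tissue came from male B6CASTF1/J mice aged 36 days, F1 hybrids of the strains C57BL/6J and CAST/EiJ, with 1 animal per library and no treatment or second group. The bladder wall is a mixture of urothelium, smooth muscle, fibroblasts, vessels, nerves and immune cells, and the cells that carried a given footprint cannot be told apart. Peaks lay within 500 bases of a start at 18 and 22 of 29 urothelial genes and 8 and 9 of 20 smooth muscle genes. They did so at 0 and 1 of 13 genes of hepatocytes, cells that the bladder lacks. The counts were 8 and 9 of 20 for fibroblast, 6 and 6 of 18 for endothelial, 4 and 2 of 14 for neuronal and 2 and 2 of 14 for myeloid genes. For housekeeping genes they were 10 and 11 of 11, above the share of any of these cell type lists. The share over all genes is not given here, so these counts describe the lists only. The comparison set was made of footprints of 7 to 12 bases that met the same distance rule and overlapped a footprint of 7 to 12 bases in the other library (8199 in replicate 1 and 8216 in replicate 2), called narrow footprints here. Because every member has a partner in the other library, nearly the same sites enter from each library, and the spread between libraries (SD, n = 2) is small by construction. With 1 group of 2 animals no test between conditions could be made, and the 95% intervals are exact Clopper-Pearson intervals that cover counting error only.

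DNase I cuts accessible DNA, and a protein that sits on its site can shield the bases it touches. CTCF, a zinc finger protein that uses an array of fingers to read a long site, holds the anchors of chromatin loops together with cohesin and acts at insulators and imprinted control regions. Its core site is bound by the central fingers, and further fingers can contact a second block of sequence on the upstream side. Most other factors considered here, such as AP-1 and GATA proteins, read short sites.

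The sites below show what the wide footprints look like. They come from the 5 highest peaks, by mean percentile, with the CTCF core in each of the main width classes described further on, and were picked with their values in view. Each line gives the nearest gene, the coordinates in GRCm38 (mm10), the strand, and the merged site with 6 bases on each side, read 5′ to 3′ from the reference. Capitals mark the CTCF core, searched as CCANNAGNNGGC on both strands. The first 3 sites were footprints of 26 to 33 bases, and the last 3 were footprints of 43 to 48 bases.
Yy1, chr12:108757999-108758043, minus strand: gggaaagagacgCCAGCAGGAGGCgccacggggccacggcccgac
Snx32, chr19:5529502-5529545, plus strand: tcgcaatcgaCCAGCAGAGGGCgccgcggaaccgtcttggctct
Ptma, chr1:86525454-86525497, minus strand: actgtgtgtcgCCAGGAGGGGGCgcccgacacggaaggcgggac
Chd2, chr7:73618496-73618553, minus strand: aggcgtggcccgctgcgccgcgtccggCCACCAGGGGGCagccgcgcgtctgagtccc
Cebpb, chr2:167685296-167685355, plus strand: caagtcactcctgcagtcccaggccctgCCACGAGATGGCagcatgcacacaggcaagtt
Camta1, chr4:151141705-151141762, minus strand: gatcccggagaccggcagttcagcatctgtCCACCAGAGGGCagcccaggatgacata
In the first 3 sites the core begins near the left end of the footprint, and in the last 3 a longer stretch precedes it.

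CTCF cores were the main sequence content of the wide footprints. In a window of 41 bases centred on the footprint, the core was present in 43.7% of members in replicate 1 (1871 of 4284, interval 42.2 to 45.2%) and in 43.7% in replicate 2 (1870 of 4283). The narrow footprints held it in 3.18% (261 of 8199, interval 2.81 to 3.59%) and 3.20% (263 of 8216), and windows 100 bases beside the wide footprints in 0.161% and 0.182%. The wide share was 13.7 and 13.6 times the narrow share, and the mean share was 43.7% ± 0.0093 (SD, n = 2) in wide and 3.19% ± 0.0126 in narrow footprints. When 1 of the 8 fixed letters was allowed to differ, 80.9% and 80.8% of wide footprints had a match, against 11.1% and 11.2% of narrow ones and 2.77% and 2.73% of the flanking windows. By merged site, 1871 sites (43.7%) had the exact core, 1598 (37.3%) had it with 1 letter changed, and 815 had neither. With 2 letters free, an allowance added after the data were seen, the shares were 92.8% and 92.7% in wide and 37.8% and 38.0% in narrow footprints, but 22.0% and 22.3% of flanking windows then matched too. The core lay on the plus strand at 903 sites and on the minus strand at 968. In 1852 pairs of neighbouring core sites on a chromosome, 47.1% had both cores on the same strand.

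The share with the core differed along the whole range of widths, also away from the threshold that defined the members. Among footprints over 1 kb from starts that overlapped any footprint of the other library, the core was present in 6.14% and 5.95% of those of 7 to 12 bases, in 662 of 5087 and 616 of 4895 of those of 13 to 18 bases, and in 26.7% and 26.2% of those of 19 to 24 bases. It reached 43.1% and 41.5% at 25 to 34 bases, was 27.9% and 32.4% at 35 to 39 bases, and was 40.6% and 37.2% at 40 to 48 bases. Just inside the threshold, at 25 to 26 bases, the shares were 34.3% and 37.1%, and just outside it, at 23 to 24 bases, they were 35.3% and 32.6%. Widths on both sides of the threshold thus had similar content.

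**Figure D1:**
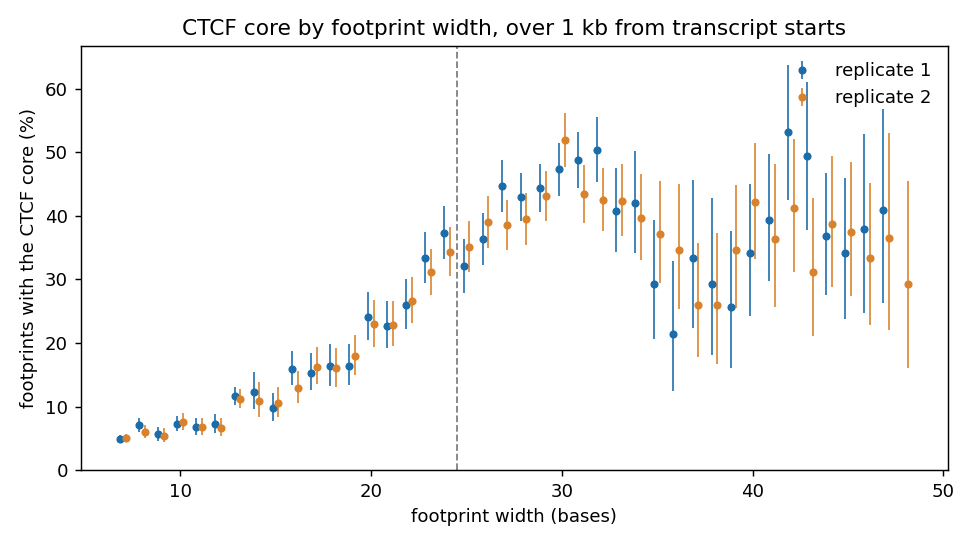
Share of footprints with the CTCF core (y axis, percent) by footprint width in bases (x axis), for footprints over 1 kb from starts that overlap any footprint of the other library; points are libraries, bars are exact 95% intervals, widths with under 20 footprints are left out and the dashed line marks the 25-base threshold. Both libraries move from 6.14% and 5.95% at 7 to 12 bases to 43.1% and 41.5% at 25 to 34 bases.

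Distance from starts also went with the share of wide footprints that held the core. For footprints of at least 25 bases in both libraries at any distance, the core was present in 4.31% (replicate 1) and 4.30% (replicate 2) of those within 100 bases of a transcript start. The share was 12.1% and 12.2% at 100 to 500 bases, 29.5% and 29.8% at 500 to 1000 bases and 36.8% and 36.8% at 1000 to 2000 bases. Beyond 10 kb it was 45.6% in each library. Members lay at a median of 8083.5 and 8083 bases from the nearest start, and narrow footprints at 8758 and 8789.5. Of the merged sites, 2171 (50.7%) were intergenic, 1808 (42.2%) lay in introns and 305 (7.12%) in exons.

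Wide footprints fell into 2 main width classes, and the difference lay on 1 side of the core. Footprints of 25 to 34 bases made up 79.2% of members in replicate 1 (3392) and 76.0% in replicate 2 (3255). Those of 40 to 48 bases made up 13.8% (590) and 13.9% (597), while widths of 35 to 39 bases made up 6.63% and 9.06%. In the narrower class the footprint began a median of 5 bases before the core in both libraries, and 82.4% and 76.8% of core members began 4 to 6 bases before it. In the wider class it began a median of 21 bases before the core in both libraries, and 92.0% and 91.0% began 19 to 24 bases before it. On the other side the footprint ended a median of 12 bases after the core in the narrower class and 10 bases after it in the wider class. The added width was thus upstream of the core, on the strand that reads CCANNAGNNGGC. The core was present in 45.8% and 46.4% of the narrower class and in 40.2% and 37.0% of the wider class. The median peak height was 1.98 and 1.70 in the narrower class and 2.37 and 2.10 in the wider class.

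**Figure D2:**
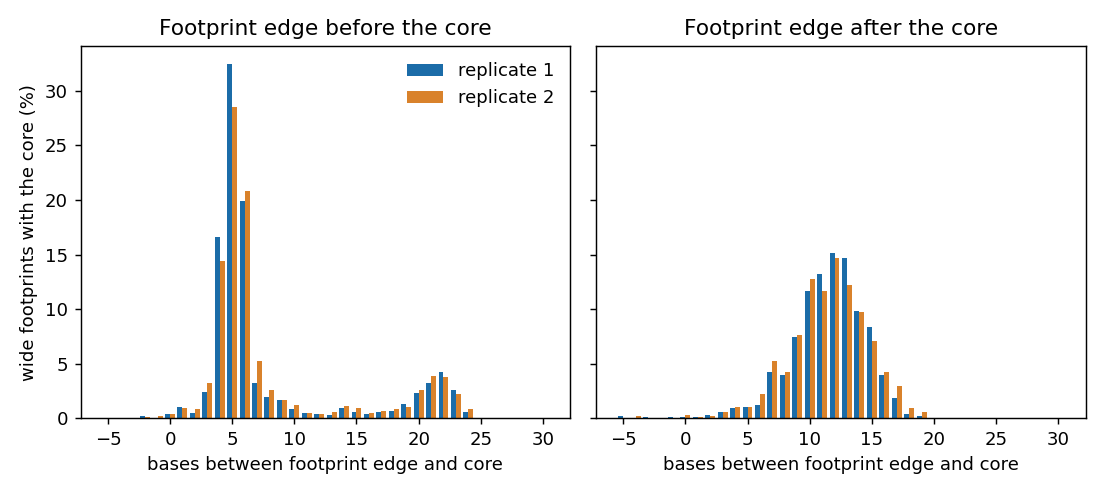
Distance in bases from the footprint edge to the CTCF core (x axis), before the core on the left and after it on the right, as the percent of wide footprints with the core (y axis); bars are the 2 libraries. The left edge has a main peak at 5 bases (32.5% and 28.6%) and a second one at 21 to 22 bases, while the right edge has a single broad peak.

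The libraries mostly agreed on the narrower class, less often on the wider class and seldom on the exact edges of a site. Of 4283 sites with 1 member in each library, 2982 were 25 to 34 bases wide in both, 338 were 40 to 48 bases wide in both, and 331 were in one class in one library and in the other class in the other library. The 2982 compare with 3392 and 3255 members of the narrower class in replicates 1 and 2. The 338 compare with 590 and 597 members of the wider class, so the wider class was repeated less often. The width was within 2 bases at 56.6% of these sites and differed by more than 5 bases at 17.9%. Start and end were both identical at 492 sites (11.5%). Whether the window held the core was the same in both libraries at every one of the 4283 sites. Both windows were read from the same reference around overlapping footprints, so this was nearly fixed by the overlap rule.

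A second block of sequence preceded the core in the wider class. Among the 133 core sites that were 40 to 48 bases wide in both libraries, the most frequent bases from 17 to 9 bases before the first base of the core were T (72.9%), G (93.2%), C (79.7%), A (75.9%), G (51.9%) and T (94.7%), then a position with no strong preference, then C (90.2%) and C (72.9%). Among the 1402 core sites that were 25 to 34 bases wide in both, the most frequent base at these positions reached at most 43.7%. TGCAGT was picked as the most frequent 6-letter word in the 30 bases before the core at the 133 sites. The intervals that follow do not cover this choice. The word was found at 39 of the 133 sites (29.3%, interval 21.8 to 37.8%) and at 63 of the 1402 (4.49%, interval 3.47 to 5.71%). All 39 began exactly 17 bases before the core, as at the Cebpb site shown above, whereas 27 of the 1402 sites had the word there. The core also differed between the classes, with A at 70.7% of wider sites as the first free letter of the second pair, where G was the most frequent at 61.2% of narrower sites. The width alone defined these classes, and the bases were not used to choose them, but the width limits were set after values were seen.

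**Figure D3:**
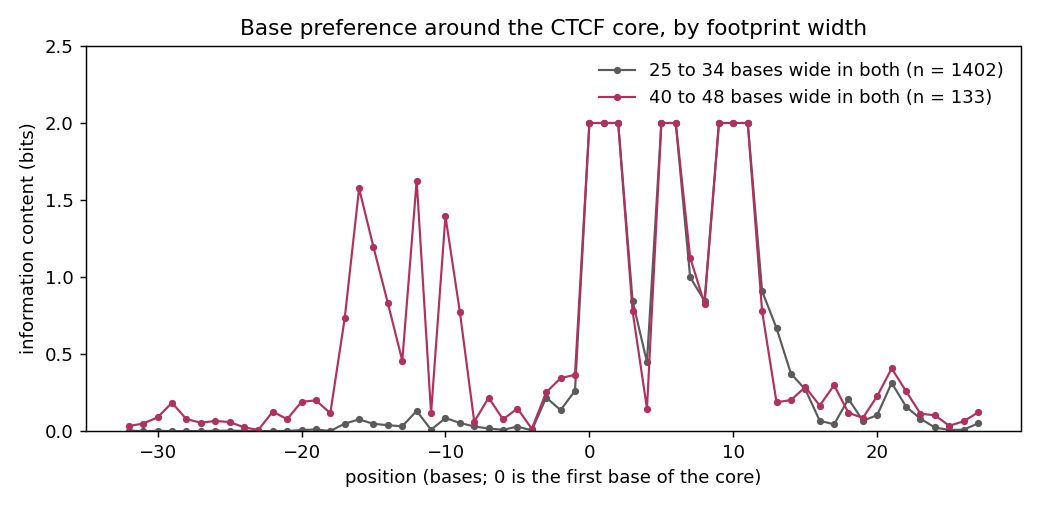
Information content in bits (y axis, 2 means a single base at all sites) by position relative to the CTCF core (x axis, 0 is its first base), for core sites 25 to 34 bases wide in both libraries (n = 1402) and 40 to 48 bases wide in both (n = 133). The 8 fixed positions of the core are at 2 bits in both by the search; the wider class has a second block 17 to 9 bases before the core, which reaches 1.63 bits where the narrower class reaches 0.132.

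The word TGCAGT was then followed in sites that had not been used to find it. Members without the exact core were searched on both strands within 61 bases around the footprint centre. The word was present in 30.3% (107 of 353, interval 25.6 to 35.4%) and 27.4% (103 of 376) of those of 40 to 48 bases, in 19.3% and 18.1% of those of 35 to 39 bases, and in 8.65% (159 of 1838) and 9.11% (159 of 1745) of those of 25 to 34 bases. The order by width was the same in both libraries. In the other direction, all CTCF cores in peaks over 1 kb from starts were sorted by whether TGCAGT began 17 bases before them, whatever their footprint. With the word, 28.4% (69 of 243, interval 22.8 to 34.5%) and 27.8% (69 of 248) lay in a footprint of at least 40 bases. Without it, 4.90% (196 of 4000, interval 4.25 to 5.62%) and 4.34% (205 of 4726) did. The median peak height was 1.32 and 1.13 with the word and 1.44 and 1.17 without it. The cores were not matched by height, and the part of peak height in this difference was not tested. These cores include the 39 sites above, so this count is a description and not an independent sample.

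Most CTCF cores in accessible chromatin away from starts had a footprint, and about as many had a wide one as not. Peaks over 1 kb from starts held 4243 cores in replicate 1 and 4974 in replicate 2. A footprint overlapped 88.8% (interval 87.8 to 89.7%) and 85.4% of them, and the footprint was wide in 56.5% (interval 55.0 to 58.0%) and 49.9%. The wide share differed strongly with peak height. With the cores split by height into 4 groups of nearly equal size, it was, from the lowest to the highest, 17.3%, 46.0%, 73.8% and 88.1% in replicate 1, and 10.2%, 39.5%, 65.7% and 83.5% in replicate 2. The median footprint width went from 19 to 30 bases and from 17 to 30 bases across the same groups. Footprint calls and peak heights come from the same reads, and the part of read depth in this pattern was not tested.

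**Figure D4:**
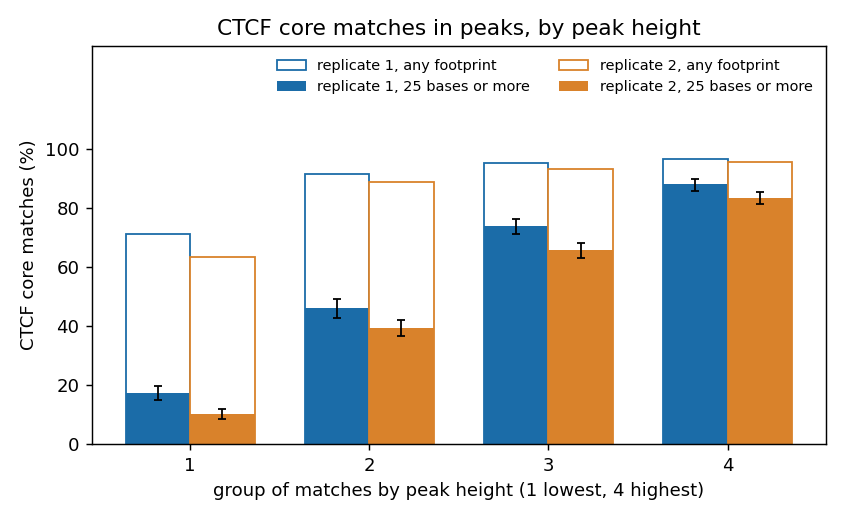
CTCF core matches in peaks over 1 kb from starts (y axis, percent) by group of peak height, 1 the lowest and 4 the highest (x axis), for each library; outlined bars are cores with any footprint, filled bars are those with a footprint of at least 25 bases, and error bars are exact 95% intervals of the filled bars. The wide share goes from 17.3% to 88.1% in replicate 1 and from 10.2% to 83.5% in replicate 2.

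Matches to other motifs lay in wide footprints less often. The consensus sequences are unequal in length, with 6 fixed letters for AP-1 and GATA, 8 for CTCF and 12 for REST. Short ones match more often outside footprints: windows beside the wide footprints held AP-1 in 1.02% and 1.02% and the CTCF core in 0.161% and 0.182%. The shares of short and long motifs are therefore not directly comparable. AP-1 sites (TGANTCA), bound by Fos and Jun proteins, had a footprint in 11.8% and 16.3% of their 1981 and 4007 matches in the same peaks, and a wide one in 2.02% and 1.52%. GATA sites (AGATAA) had a wide footprint at 1.94% and 1.54% of matches, and sites of grainyhead-like epithelial factors (AACCNGTT) at 1.47% and 1.55%. The TEAD motif (ACATTCC), read by effectors of the Hippo pathway, had one at 1.89% and 1.06%. YY1 sites (AAGATGGC), which can lie wholly inside the CTCF core, had one at 25.8% and 20.1% of 221 and 339 matches. REST sites (AGCACCNNGGACAG), long sites of a repressor of neuronal genes, were the nearest to CTCF, with a footprint at 64.1% and 62.1% of 92 and 95 matches and a wide one at 31.5% (interval 22.2 to 42.0%) and 27.4% (interval 18.7 to 37.5%).

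Of 42 motifs searched, 4 were at least 1.5 times as frequent in wide as in narrow windows in both libraries, with at least 20 hits, and 18 were at most 0.67 times as frequent. The 4 were CTCF, YY1, REST and MEF2. REST was found in 15 and 16 wide windows (0.350% and 0.374%) and in 0.159% and 0.170% of narrow ones. YY1 (AAGATGGC), a zinc finger factor, was found in 46 wide windows in each library (1.07%) and in 0.463% and 0.475% of narrow ones, but 45 of the 46 also held the CTCF core within 1 mismatch, and this motif can lie wholly inside that core. MEF2 (CTANNNNTAG), a muscle regulator, was in 0.607% and 0.654% of wide windows and in a similar share of flanking windows (0.591% and 0.559%). Of its 26 and 28 wide windows, 23 and 24 also held the CTCF core within 1 mismatch. The 18 lower motifs were AP-1, TEAD, GATA, GRHL (the grainyhead-like site), the SRF CArG box, short NFI, short ETS, FOX, KLF, NF-Y, C/EBP, NF-kappaB, IRF, E-box A, E-box B, PBX-HOX, HOX13 and SOX. Among the widely expressed factors, short NFI was searched as TTGGCA, short ETS as AGGAAG, KLF as GGGNGTGG and NF-Y as CCAATCA. The E-box of class A was CAGCTG and that of class B was CACGTG. The sites of C/EBP and FOX factors were TTGCNNAA and TGTTTAC, and those of the inflammatory factors NF-kappaB and IRF were GGGANNTTCC and GAAANNGAAA. The developmental factors PBX-HOX, HOX13 and SOX were searched as TGATTNAT, as CAATAAA and as AACAATG. AP-1 was in 0.934% and 0.864% of wide and 3.37% and 3.35% of narrow windows, and the narrow windows exceeded their own flanks (1.81% and 1.69%). Narrow windows fell below their flanks in both libraries for short ETS (4.92% and 4.93% against 5.91% and 5.84%), GATA, FOX, HOX13, IRF and SOX. For the SRF CArG box, NF-kappaB and PBX-HOX the order differed between libraries. For the rest of the 18, narrow windows exceeded their flanks in both libraries. In members with no CTCF core within 1 mismatch, AP-1 was in 2.94% and 2.68%, against 3.54% and 3.54% of the narrow windows of the same kind. In these windows with no core within 1 mismatch, 13 of the 18 motifs were again lower in wide than in narrow footprints in both libraries. Another 4 were higher in both (short NFI, KLF, IRF and E-box B), and NF-Y differed between the libraries. Some orders rest on few hits in wide windows: IRF had 3 in each library, NF-Y 5 and 4, TEAD and FOX 1 in each. Weaker CTCF matches, with 2 letters changed, were not removed from this set. Short NFI was in 4.53% and 4.38% of wide and 3.84% and 3.89% of narrow windows, KLF in 3.67% and 3.77% against 3.03% and 3.10%, and E-box B in 1.35% and 1.58% against 1.19% and 1.27%. The GC box of SP and KLF factors (GGGCGG) was in 8.32% (68 of 817) and 8.39% (69 of 822) of these wide windows and in 4.80% and 4.74% of the narrow ones. The cyclic AMP response element (TGACGTCA) was in 9 and 10 of them (1.10% and 1.22%), against 0.192% and 0.192%. The SRF CArG box, a smooth muscle and immediate early element, was in 5 wide windows in each library (0.117%). The p53 family motif, searched in the spelling CATGNNNNNNCATG only, and the full RFX motif had no hit in wide windows. With an exact interval this allows up to 0.0861% for the spellings searched, and other spellings were not counted. The full NFI motif (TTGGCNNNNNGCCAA) had 4 hits in wide and 1 in narrow windows.

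**Figure D5:**
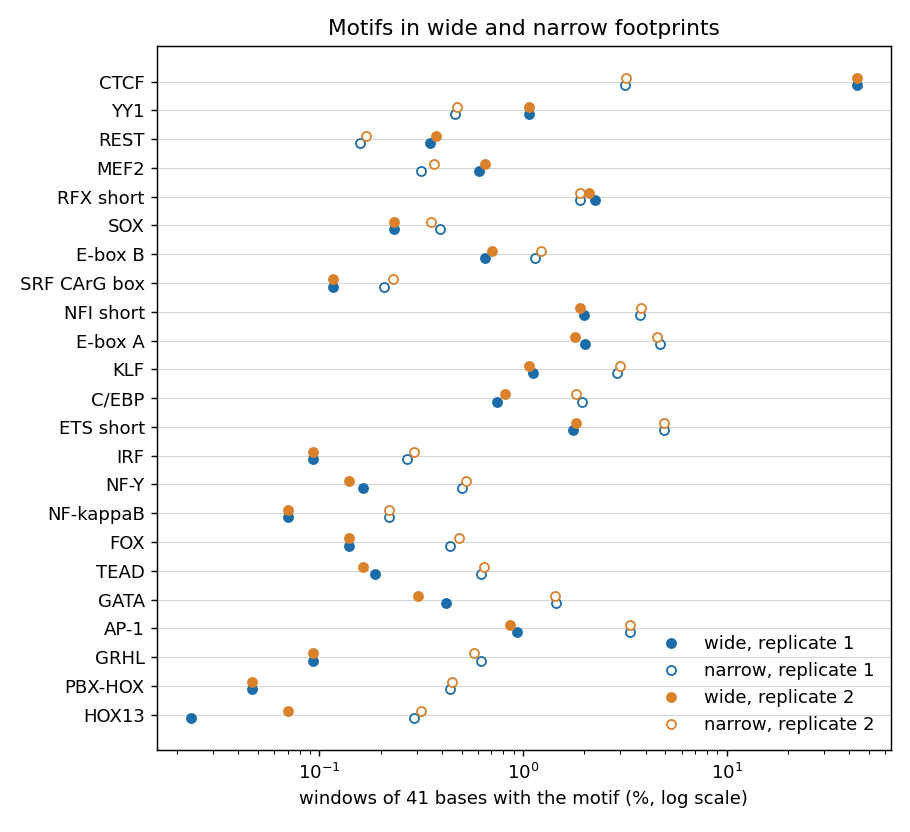
Percent of 41-base windows with each motif (x axis, log scale) in wide (filled) and narrow (open) footprints of each library, for motifs with at least 20 hits that passed the ratio rule or were always named. CTCF stands apart at 43.7% against 3.18% and 3.20%, and most of the motifs below it are more frequent in narrow footprints; counting intervals are not drawn.

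A search free of motif models gave the same leading content. Of all 8-base words held by at least 1% of wide windows, the 10 with the highest ratio over narrow windows could each lie in or beside the CTCF core. AGCGCCAC, the highest, was in 5.72% of wide windows in each library and in 0.293% and 0.280% of narrow ones. CAGGGGGC was the most frequent of the 10, at 13.5% in each library against 1.02% and 0.986%. In the 817 and 822 members with no core within 1 mismatch, the highest was ACCTAGCG (1.59% and 1.58%), followed by GCGACCCC and CTAGCGTC. Weaker CTCF matches remained among these members, so such words may still be part of a CTCF site. Of all members, 3974 and 3971 matched with 2 letters free, against 3467 and 3461 with 1. The same list held CACGGACA (1.35% and 1.34%) and AGCACCAC (3.30% and 3.28%), whose letters also occur in the REST site.

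REST sites in wide footprints are shown because REST was the longest of the other motifs on the higher side. The 4 highest without a CTCF core were footprints of 26 to 30 bases, and capitals mark the REST motif.
Xkr6, chr14:63681611-63681650, plus strand: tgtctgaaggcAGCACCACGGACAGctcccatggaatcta
Fbxl16, chr17:25813697-25813740, minus strand: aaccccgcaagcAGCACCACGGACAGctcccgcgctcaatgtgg
Nt5c2, chr19:47016665-47016705, minus strand: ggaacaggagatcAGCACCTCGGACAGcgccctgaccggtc
Vstm2l, chr2:157913263-157913303, minus strand: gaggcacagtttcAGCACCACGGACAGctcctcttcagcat
The Xkr6 site had peak heights of 4.61 and 4.29, the Fbxl16 site 2.36 and 1.83, the Nt5c2 site 1.85 and 1.57, and the Vstm2l site 1.69 and 1.72. None of the 15 and 16 wide windows with REST held the CTCF core within 1 mismatch.

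Wide footprints lay in higher peaks than narrow ones. Peak height is the deposited signal of the peak, on a scale that the sources do not state, and 96.5% and 97.9% of members lay in a peak against 66.5% and 77.1% of narrow footprints. The median height was 2.04 in replicate 1 and 1.76 in replicate 2 for members, and 1.44 and 1.29 for narrow footprints. The ratio of medians was 1.42 and 1.36 (1.39 ± 0.0415, SD, n = 2). The upper quartiles were 2.70 and 2.34 in wide and 2.12 and 1.85 in narrow footprints, so the ranges overlapped widely. Members with the core had medians of 1.98 and 1.69, members with 1 letter changed 1.99 and 1.74, and members with neither 2.27 and 2.09. Narrow footprints with the core lay lower, at 0.918 and 0.777.

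The core content did not follow peak height in the same way in both sets. With peaks split by height into 4 groups, the core was present in 42.5%, 45.9%, 48% (628 of 1307) and 38.6% of wide footprints from the lowest to the highest group of replicate 1, and in 51.9%, 47.8%, 46.1% and 36.4% in replicate 2. The third group was thus the highest in replicate 1 and the lowest group in replicate 2. From the lowest to the highest group, the share of narrow footprints with the core was 5.67%, 0.950%, 0.823% and 0.414% in replicate 1 and 5.93%, 1.76%, 0.769% and 0.419% in replicate 2. The wide share was above the narrow share in all 4 groups of both libraries.

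Wide windows were richer in G and C. The mean GC content was 59.2% and 59.1% in wide and 55.1% and 55.1% in narrow windows, a difference of 4.08 and 3.94 percentage points (4.01 ± 0.0978, SD, n = 2). At least 1 CpG was present in 74.2% and 74.0% of wide and in 60.6% and 61.0% of narrow windows. Members with no core within 1 mismatch had 60.4% and 60.0% GC, against 54.7% and 54.8% in narrow windows of the same kind. The difference was thus also present without a core within 1 mismatch. Weaker CTCF matches, with 2 letters changed, were not removed from this set, and their part in the difference was not tested. Windows with at least 50% soft-masked repeat bases made up 7.47% and 7.42% of members and 8.84% and 8.71% of narrow footprints. Among members with the exact core the repeat share was 11.7% in both libraries, and among members with 1 letter changed it was 3.45% and 3.39%.

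Wide footprints were found again in the other library far more often than narrow ones. Of the footprints of at least 25 bases away from starts, 4284 of 6033 in replicate 1 (71.0%) and 4283 of 6570 in replicate 2 (65.2%) overlapped one of that width in the other library. Of the footprints of 7 to 12 bases, 8199 of 38500 (21.3%) and 8216 of 57224 (14.4%) overlapped one of that width. A footprint of any width was found in the other library for 97.9% and 94.2% of the wide and for 33.1% and 21.1% of the narrow footprints. Among those with any footprint in the other library, the width class was also the same for 72.5% and 69.2% of the wide and 64.3% and 68.0% of the narrow ones, a much smaller difference. Wide intervals offer more bases to overlap, and they lay in higher peaks as given above; the part of either in this difference was not tested.

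Core sites were ranked by the mean of their peak's height percentile in both libraries, at most 1 per 100 kb. The first 8 lay nearest Yy1 (heights 7.03 and 6.22), Snx32 (6.28 and 5.52), Chd2, a chromatin remodeller (5.85 and 5.60), Olfr750 (5.67 and 5.67), Ptma (5.29 and 6.37), Otud3 (5.67 and 5.64), Nfib (5.58 and 5.44) and Cebpb (5.27 and 5.48). Their mean percentiles were 97.4 to 99.3. The Mybpc3 core site (6.25 and 4.55), higher than most of these in replicate 1 and lower than each in replicate 2, had a mean percentile of 97.1 and ranked below them. The Yy1 site was intergenic, 34952 bases from the nearest start, and the Snx32 site was intronic, 18985 bases from it. The Nfib footprint was 32 bases wide in replicate 1 and 56 bases wide in replicate 2, so the libraries differed in its class.

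The highest wide footprint of each library held none of the longer motifs searched (at least 8 fixed letters). The same was true of 2343 of the 4284 merged sites (54.7%). The 6 sites named here were chosen as the highest of those, so their lack of a longer motif comes from the choice. The intergenic site nearest Igf2bp3, 21475 bases from a start, had heights of 27.7 and 25.3, and the intronic site nearest Il31ra had 25.9 and 26.3, which is over 3 times the highest core site in each library. The sites near Gphn (14.6 and 13.5), Gm10722 (8.67 and 14.6), Jarid2 (12.5 and 8.90) and Cdh20 (7.89 and 7.67) followed. The 41 central bases were unique on the autosomes at Igf2bp3, Il31ra and Cdh20, but had 4 exact copies for Gphn, 5 for Gm10722 and 2 for Jarid2. The Gm10722 and Jarid2 sites lay wholly in soft-masked repeats. The part of read placement among such copies was not tested. The Igf2bp3 site is shown as the highest of them, with no capitals because no motif of at least 8 fixed letters was found. Among the shorter motifs, an AP-1 match (TGANTCA) lies across its left edge. The Gphn site held the GC box and the Cdh20 site a match to the short NRF2-small MAF motif, and the other 3 held none of the shorter motifs.
Igf2bp3, chr6:49236406-49236458, plus strand: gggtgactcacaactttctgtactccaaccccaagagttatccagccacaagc

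The widest members included the upstream flank of transfer RNA genes. The widest by the smaller of both widths was 57 and 60 bases, over the start of the leucine tRNA gene n-TLtag1 near Eef2k. It was followed by a site near Cdh20 (55 and 54 bases), one near Srl (51 and 52), one near Msl1 (50 and 52), the Il31ra site (50 and 50) and one at the phenylalanine tRNA gene n-TFgaa5 near Dct (51 and 50). Only the Dct site had a CTCF core, and that with 1 letter changed. In all, 27 merged sites overlapped 21 of the 386 tRNA genes that RefSeq lists on autosomes, and 2 of the 27 held a core within 1 mismatch. Their median width was 35 and 33 bases and their median height 2.93 and 3.01, above the 2.04 and 1.76 of all members. These small genes are transcribed by RNA polymerase III from promoter elements inside the gene, the A box and the B box. GTTCGA, letters of the B box, was present in the window at 16 of the 27 sites and at 27 of all 4284 sites.

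The tRNA members took 1 of 2 positions. Some covered the 3′ part of the gene, such as n-THgtg8, a histidine tRNA gene, from base 38 to 1 base past its end (widths 36 and 34, heights 4.58 and 4.63). Others covered the flank just before the gene, such as n-TTcgt5, a threonine tRNA gene, from 47 bases before it to its base 3 (widths 47 and 50, heights 5.54 and 5.35). At n-TFgaa5, n-TFgaa7, n-TGtcc2, n-TKctt17, n-TNgtt9 and n-TScga3 both positions were wide in both libraries. Of 309 tRNA genes over 1 kb from GENCODE starts, 108 in replicate 1 and 118 in replicate 2 had a footprint and 33 and 36 had one of at least 25 bases. GENCODE starts did not cover most tRNA genes, so these members passed the distance rule although they lie at starts of that kind. Of all members, 203 (4.74%) lay within 1 kb of a RefSeq transcript start.

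Known CTCF sites at the imprinted H19 locus were not members. RefSeq lists 9 CTCF sites on autosomes, and 0 of them overlapped a member. The 4 in the H19 control region on chromosome 7 had footprints of at most 9 bases in replicate 1 and 20 bases in replicate 2. Peak heights there were 0.873 to 1.13 in replicate 1 and 0.759 to 0.839 in replicate 2, where a peak was present, below the median of the members. None of these 4 held the exact core. The other 5 had no footprint in replicate 1, and 1 of them had one in replicate 2, of 23 bases.

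Wide footprints lay near a minority of genes. Of 20807 protein-coding genes on autosomes, 6732 (32.4%) had a merged site within 50 kb of a start, and 3467 (16.7%) had one with the CTCF core. The share of a list is read beside these. Genes of the urothelium, the lining epithelium, had a site at 18 of 29 (62.1%, interval 42.3 to 79.3%) and a core site at 10 of 29. Among them Krt18 and Krt8, neighbouring keratin genes, had 5 and 4 sites, of which 4 and 3 had the core. Upk1a, Upk1b, Upk2, Upk3a and Upk3b, the uroplakins of the urothelial plaque, had 1 site each, with the core at Upk1b alone. Of the epithelial transcription factors in the list, Elf3 had 1 site without the core and Ovol1 had 1 with it, while Trp63, Gata3, Foxa1, Grhl2, Grhl3, Klf5, Ehf and Pparg had 0. The 18 genes shared 23 distinct sites.

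Among the other lists, immediate early and myeloid genes had the highest shares. Smooth muscle genes had a site at 9 of 20 (45.0%, interval 23.1 to 68.5%), among them Smtn and Csrp1 with 2 each, and Cnn1, Mylk and Actg2 with 1 each. Fibroblast genes had one at 5 of 20 (25.0%), with 3 sites near Fbln1 and 2 near Pdgfrb. Endothelial genes had one at 8 of 18 (44.4%), with 3 near Vwf. Immediate early genes, a class switched on rapidly by stimuli, had one at 13 of 18 (72.2%, interval 46.5 to 90.3%), with 3 sites near Fosb and Btg2, while core sites lay near 5 of 18. Myeloid genes had one at 10 of 14 (71.4%, interval 41.9 to 91.6%), with 3 near Spi1, a master regulator of that lineage, while 2 of the 14 had a peak within 500 bases of a start in each library. Housekeeping genes had one at 5 of 11 (45.5%), and genes of CTCF and the cohesin machinery at 2 of 9. Lists of other tissues had one at 6 of 14 for neurons (42.9%) and 4 of 13 for hepatocytes (30.8%). Imprinted genes had one at 14 of 27 (51.9%, interval 31.9 to 71.3%), of which 7 had a core site. No test of the lists was made, and genes that lie side by side share sites.

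Hox genes had a wide site at 23 of 39 (59.0%) but a core site at 0 of 39. The genes lie side by side in clusters, and the 23 genes shared only 5 distinct sites, so this share counts the same sites many times. Hoxb3 to Hoxb9 had 2 sites each, and the Hoxc and Hoxd genes with a site had 1 each.

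Genes with the most wide sites were in part neighbours of tRNA genes. Tmem107 had 11 sites within 50 kb and 0 with the exact core, and Fcgr3, 4930438A08Rik and Gm12184 had 6, 5 and 5 sites, also with 0. Members at tRNA genes lay near these genes, such as n-TScga3 and n-TSgct3 near Tmem107. At each of these genes only some of the sites overlapped a tRNA gene that RefSeq lists, and at Tmem107 most did not. Ptma had 7 sites, 3 with the core. Entpd3, a nucleotidase gene, had 6 with 4, Mrpl14 had 6 with 3, and Jarid2 had 6 with 1. Acot7 and Ang had 5 sites each with 3 core sites, H2-D1, a major histocompatibility gene, had 5 with 2, and Hfe2 had 5 with 1. Of all genes, 131 had at least 4 sites, and the mean was 0.451 per gene.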

How the data were processed

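DNase-seq peaks and footprints of 2 libraries were used as deposited. Per the deposited notes, the authors called them in each library on its own, on alignments to mm10. For aligner, peak caller and footprint caller, names and versions were not given in the sources used here. Peak height is a signal value the authors deposited for each peak, on an unstated scale. Each deposited footprint carries the value 0.01, taken here as the cutoff for a p-value or FDR, and ranks nothing. FDR lists were not used here. Total read depth is not given in these files.

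Footprints were assigned to members by width, overlap (at least 1 base) and distance from 125891 GENCODE M21 transcript starts on 19 autosomes. Windows of 41 bases were read from GRCm38 patch 6 (RefSeq) and searched on both strands for 42 consensus sequences. Flanks were windows 100 bases away that touched no footprint. Peak height came from the shorter of 2 deposited peak lists. Scripts used Python 3.11.15, numpy 2.4.6, pandas 2.3.3 and scipy 1.17.1, and the motif search was tested on simulated sequence. Members and lists were chosen with earlier results of these data known. Sites were named by rule: 8 core sites and 6 sites without a motif of at least 8 fixed letters by height, the 6 widest, and the 12 genes with the most sites, at most 1 per 100 kb. Width classes, REST sites and the word before the core were chosen after values were seen. Separate animals make the replicates. Alternatives changed width, distance, overlap, window, motif, peak list, repeat content and gene distance.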

Additional observations from a re-analysis of the deposited data

How the results depend on the processing

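Every setting kept the wide core share above the narrow one, wide peaks higher and wide windows richer in GC. In order, values are the number of sites, core shares of wide and narrow footprints, ratio of peak heights, GC difference in percentage points and percent of genes with a site, and those not given moved by less than the spread between libraries (counts by under 1.5 times, gene shares within their interval) or were not recomputed. A minimum of 20 bases gave 6718 sites, 41.1%, a ratio of 1.28 and 42.2% of genes. A minimum of 30 bases gave 1777 sites, 42.8%, 1.54, 3.42 points and 16.2%. Starts over 500 bases away gave 42.7%, 2.93%, 3.47 points and 34.8%, and over 5 kb away 2786 sites, 45.5%, 3.14%, 1.43, 4.47 points and 18.7%. Overlap of at least 50% of both footprints gave 43.7%, 3.36% and 4.47 points. Narrow footprints not required in the other library gave 2.98%, 1.61 and 5.08 points, and those over 50 bases from wide ones 3.88%, 1.60 and 2.89 points. Windows of 31 bases gave 43.3%, 2.25% and 6.16 points, and of 61 bases 43.7%, 7.84% and 2.32 points. The stricter consensus gave 30.5% and 1.84%, 1 mismatch 80.9% and 11.2%, and 2 mismatches, added after seeing the data, 92.7% and 37.9%. The longer peak list gave a ratio of 1.62. The higher 50% of peaks gave 43.1%, 0.733% and 3.82 points. Weighting narrow footprints to the heights of wide ones gave 1.23% and 3.23 points, and windows with under 50% repeat bases 41.7%, 3.05% and 3.74 points. Genes within 10 kb gave 9.91% and within 100 kb 47.5%. Leaving out 1 library also dropped the overlap rule: counts were 6033 (replicate 1 alone) to 6570 (replicate 2 alone), wide core shares 39.2 to 41.9%, narrow shares 2.67 to 3.29%, height ratios 1.43 to 1.48, GC differences 4.51 to 4.76 points and gene shares 39.5 to 42.3%. The causes were not tested. No paired analysis was possible because there is 1 group. Depth is unknown. CTCF cores in the lowest of the 4 height groups had a footprint in 71.1% and 63.5%.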
